A study of Mus musculus with 6 samples.

Results

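Genes of adipocyte lipid handling and adipokine secretion were followed in the open chromatin of bone marrow stromal cells. The 10 were Adipoq, Lep, Lpl, Cd36, Fabp4, Acsl1, Gpd1, Dgat2, Plin1 and Cidec. They are 10 of the 21631 mouse protein-coding genes considered, and were chosen by name, with earlier results of these data known. A peak of open chromatin was given to a gene when that gene had the nearest protein-coding span, within 100 kb of the peak's summit. Peaks of the 6 libraries that overlapped by at least 1 bp were merged into union regions. The 10 genes held 48 of 78613 union regions. The farthest of the 48 lay 47194 bp from its gene, Lpl, and 0 regions past 100 kb had one of the 10 genes as the nearest.

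The cells were mesenchymal stem and progenitor cells (MSPCs), sorted from bone marrow by the red fluorescent protein tdTomato. All mice were female and of the genotype Lepr-Cre;LSL-tdTomato+/-, in which Cre made under the leptin receptor gene switches on tdTomato, so that the sorted cells are those that make, or whose ancestors made, Lepr. At 8 to 10 weeks of age the DOX group received 4 intravenous injections of doxorubicin, an anthracycline that poisons topoisomerase II, at 5 mg/kg and 1 week apart, and the PBS group received phosphate-buffered saline on the same schedule. The marrow was taken 8 weeks after treatment, and each group gave 3 ATAC-seq libraries, made by an Omni protocol. ATAC-seq cuts accessible DNA with the transposase Tn5, and a peak is a place where many fragments pile up. How many mice went into a library is not stated by the labels, and p-values here measure only how the libraries vary, which may in part be technical.

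Adipocytes take up fatty acids that lipoprotein lipase frees from circulating lipoproteins, activate them to acyl-CoA, join them to a glycerol backbone and store the triglyceride in a droplet coated by perilipin. They also secrete the hormones adiponectin and leptin. Stromal cells of the leptin receptor lineage are the main source of marrow adipocytes in adult mice, and they transcribe adipocyte genes such as Adipoq and Lpl before they store lipid.

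Every DOX library was deeper than every PBS library. PBS libraries had a mean of 0.558 (replicate 3) to 1.27 fragments per genome position, and DOX libraries 1.67 to 2.22. The deposited lists of the PBS libraries held 65462 to 89264 peaks, and those of the DOX libraries 91026 to 100642. The strongest 65462 peaks of each library were therefore kept, ranked by −log10 p. The weakest kept peak had a summit height of 5 to 16 fragments in PBS and 20 to 28 in DOX. A region not held by a library thus lay at or below that library's limit and need not have been closed. Peaks tied at the limit were taken in order of chromosome and position. Depth and treatment cannot be told apart in these 6 libraries. Of 10 MSPC markers, 9 had a peak within 1 kb of a gene end in all 6 libraries, and the other, Prrx1, had one in 5. Among B cell markers, Blk had one in 3 of 3 DOX and 0 of 3 PBS libraries, while Cd79b, Pax5 and Ms4a1 had none in any library. Myeloid genes had 1 to 2 of 7, endothelial genes 1 of 6, and T and NK cell genes 1 of 5, in every library. Erythroid and megakaryocyte genes had 3 to 4 of 6. The part of other cells in the values below was not tested.

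The 10 genes differed widely in how much open chromatin lay around them, and the order of their mean numbers did not reverse between the groups for any pair of genes. Lpl held the most regions, with 5, 6 and 8 in PBS replicates 1, 2 and 3 and 7, 8 and 8 in DOX replicates 1, 2 and 3. Acsl1 held 5, 6 and 5 in PBS and 8, 7 and 6 in DOX, Dgat2 held 5, 6 and 5 against 6, 7 and 6, and Adipoq held 6, 5 and 5 against 5, 6 and 6. Within each group the counts of these 4 genes overlapped, except that every DOX count of Lpl was above every DOX count of Adipoq, and each had more regions than 86.7% to 90.2% of all protein-coding genes, whose median was 1. Fabp4 and Plin1 came next, each with 3, 2 and 2 regions in PBS, and with 3, 3 and 4 (Fabp4) or 2, 3 and 4 (Plin1) in DOX. Lep held 1, 3 and 2 regions in PBS and 2 in each DOX library. Cidec held 1 region in every PBS library against 2 in every DOX library, and Gpd1 held 0 in each PBS library and 1, 1 and 2 in DOX. Counted as single peaks, Gpd1 had 0, 0 and 1 in PBS, where the peak of replicate 3 was merged into a region nearer to Cox14, and 1, 1 and 2 in DOX, so that its groups then overlapped. Cd36 held 0 regions in all 6 libraries, as did 28.7% of all genes.

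**Figure D1:**
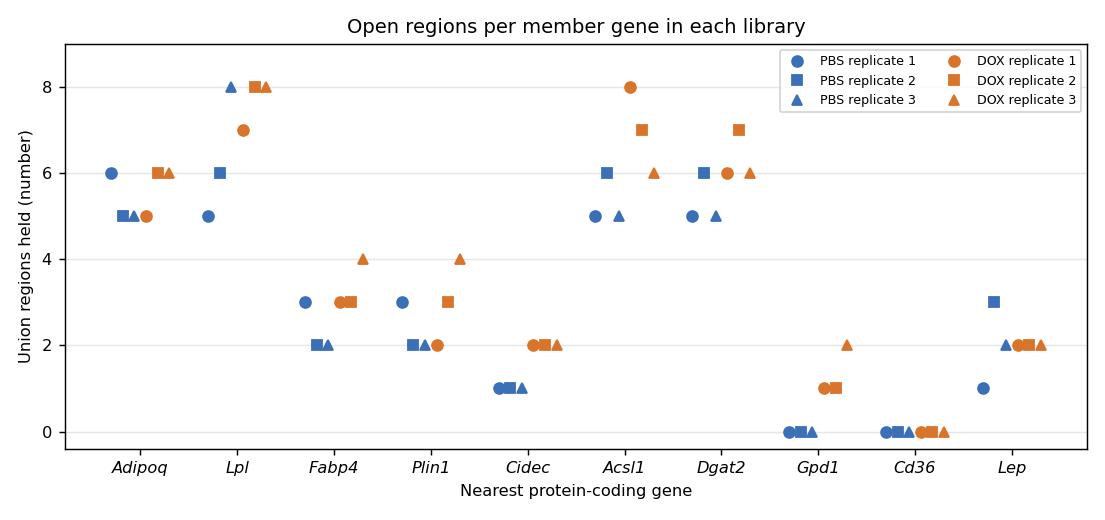
Number of union regions (vertical axis) held by each of the 10 genes (horizontal axis) in each library, with PBS in blue, DOX in orange and a marker shape for each replicate number. Only for Cidec and Gpd1 do all 3 DOX libraries lie above all 3 PBS libraries, and Cd36 is at 0 throughout.

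Together the 10 genes held 29, 31 and 30 regions in PBS (30 ± 1, SD, n = 3) and 36, 39 and 40 in DOX (38.3 ± 2.08, SD, n = 3), and the groups did not overlap. Regions of all genes were also fewer in each PBS library, at 53858 to 57472, than in each DOX library, at 57943 to 58679. As a share, the 10 genes held 0.512, 0.539 and 0.557 of every 1000 regions in PBS and 0.621, 0.668 and 0.682 in DOX. Depth was also higher in every DOX library, and its part in the sums was not tested. No test was made over the list. In mean number of regions, 8 of the 10 genes were higher in DOX, 0 were lower, and Lep and Cd36 were equal, against 24.2% higher and 12.6% lower among all genes. Those shares include the 28.7% of genes with no region. Of the 7 genes with a mean of at least 2 regions, 6 were higher, against 42.3% higher and 20.6% lower among all such genes. All DOX libraries lay above all PBS libraries for 2 of the 10, Cidec and Gpd1, and for 422 of 21631 genes (1.95%). The opposite held for 0 of the 10 and for 0.458% of all genes.

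No single gene passed the test for its number of regions. The test (limma on log2 of regions + 0.5, with each gene's spread raised to at least that of genes with similar numbers) covered 8698 genes with a mean of at least 2 regions, 7 of these 10 among them, and called 0 genes (0%) at an adjusted p under 0.05. At an unadjusted p under 0.05 it held 276 genes, or 3.17%. Cidec, Gpd1 and Cd36 fell below the minimum mean. The log2 difference, DOX minus PBS, was 0.44 ± 0.19 (SE) for Fabp4, 0.36 ± 0.13 for Acsl1, 0.28 ± 0.18 for Lpl, 0.28 ± 0.28 for Plin1, 0.23 ± 0.13 for Dgat2, 0.08 ± 0.13 for Adipoq and 0.08 ± 0.34 for Lep, each with an adjusted p of 1 by limma. Their median was 0.28, and that of all tested genes was 0. With limma's usual moderation, which can let genes without spread between replicates pass, 1.14% of genes were called and none of the 7, whose adjusted p ran from 0.693 to 1. With a minimum mean of 1 region Cidec entered the test, at a log2 difference of 0.74 ± 0.19 and an adjusted p of 1 by limma.

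The regions lay mostly outside the genes. Of the 48, 16 had their summit inside the gene (33.3%, against 58.8% of all assigned regions), and 6 had it within 1 kb of a gene end. All 6 libraries held 24 of the 48, or 50%, against 62.5% of all union regions. More DOX than PBS libraries held 19 of the 48, more PBS than DOX libraries held 3, and 26 were held by as many of each, while over all regions 19% and 12.9% tipped towards DOX and PBS. DOX libraries alone held 9 (18.8%, against 7.28% of all regions) and PBS libraries alone held 3 (against 8.85%). No test was made of these shares. They include the 8 regions held by 1 library only. Those of DOX were at Lpl, Plin1, Dgat2 and Gpd1 in replicate 3, the deepest library, and at Dgat2 in replicate 2. Each of the 3 regions of PBS alone was held by 1 library.

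**Figure D2:**
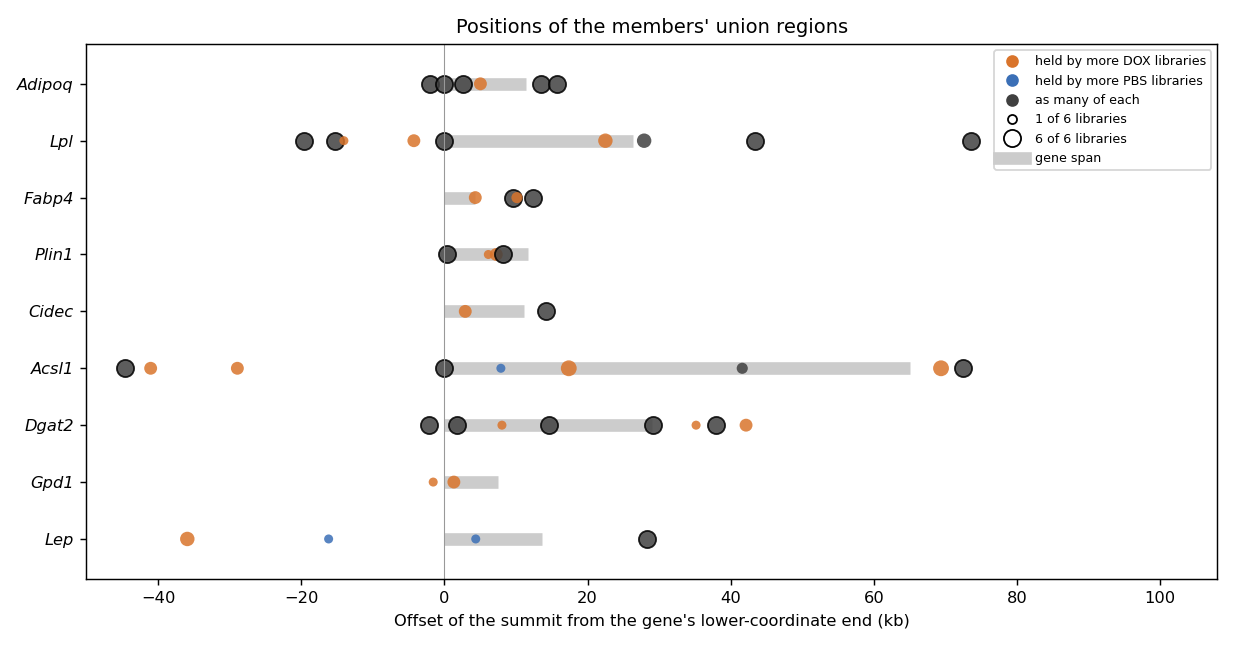
Position of each union region's summit (horizontal axis, kb from the lower-coordinate end of the gene) for the 9 genes with regions, with the gene span as a grey bar. Point size gives the number of libraries that hold a region, an outline marks those held by all 6, and colour shows which group holds it in more libraries. Of the 48 points, 19 are orange and 3 are blue.

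The promoters of the genes differed in base composition and in openness. A RefSeq promoter table of GRCm38.p6, the assembly that mm10 displays, matched 6 of the 10 genes with 8 promoters and had no entry for Lpl, Fabp4, Dgat2 and Gpd1. A kept peak overlapped the window from 250 bases before to 50 bases after the start in all 6 libraries at 2 of the 8, those of Adipoq and the first of Acsl1, and in 0 libraries at the other 6. Among 21045 protein-coding promoters 53.6% had a peak in all 6 libraries and 42% in none. The 250 bases before the start are given 5′ to 3′ on the gene's strand for the open Adipoq promoter, the open Acsl1 promoter, and the Lep, Plin1 and Cd36 promoters, which held no kept peak. Capitals mark motif matches on either strand.
Adipoq: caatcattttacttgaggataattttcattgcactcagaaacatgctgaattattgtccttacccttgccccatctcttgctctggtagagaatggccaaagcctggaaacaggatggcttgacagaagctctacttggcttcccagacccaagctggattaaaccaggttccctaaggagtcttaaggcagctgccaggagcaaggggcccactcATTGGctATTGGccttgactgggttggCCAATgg
Acsl1: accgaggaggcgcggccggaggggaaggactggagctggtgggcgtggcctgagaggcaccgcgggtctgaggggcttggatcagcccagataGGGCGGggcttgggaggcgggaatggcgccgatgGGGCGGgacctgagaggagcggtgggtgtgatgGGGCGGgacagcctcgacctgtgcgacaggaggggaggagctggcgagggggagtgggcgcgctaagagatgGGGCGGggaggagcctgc
Lep: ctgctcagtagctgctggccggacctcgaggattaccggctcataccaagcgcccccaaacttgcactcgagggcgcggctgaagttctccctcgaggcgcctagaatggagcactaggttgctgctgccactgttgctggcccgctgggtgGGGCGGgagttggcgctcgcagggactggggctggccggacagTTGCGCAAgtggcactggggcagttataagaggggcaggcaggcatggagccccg
Plin1: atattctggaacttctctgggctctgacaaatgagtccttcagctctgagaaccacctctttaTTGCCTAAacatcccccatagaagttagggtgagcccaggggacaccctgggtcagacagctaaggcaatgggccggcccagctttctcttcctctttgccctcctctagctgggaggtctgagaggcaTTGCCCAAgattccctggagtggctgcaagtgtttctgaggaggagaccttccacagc
Cd36: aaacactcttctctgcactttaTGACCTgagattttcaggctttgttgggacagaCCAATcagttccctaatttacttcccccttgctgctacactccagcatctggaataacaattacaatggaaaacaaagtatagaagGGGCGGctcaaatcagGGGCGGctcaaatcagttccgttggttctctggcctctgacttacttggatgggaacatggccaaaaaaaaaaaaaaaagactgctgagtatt
The stretches are chr16:23146286-23146535 (plus strand) for Adipoq, chr8:46470787-46471036 (plus) for Acsl1, chr6:29059971-29060220 (plus) for Lep, chr7:79732777-79733026 (minus) for Plin1 and chr5:17835897-17836146 (minus) for Cd36. The open Adipoq stretch had a GC content of 48.8% and 0 CpG dinucleotides, and carried 3 CCAAT boxes, 2 of them in reverse as ATTGG, that began 34, 27 and 7 bases before the start. The open Acsl1 stretch had a GC content of 72% and 20 CpGs, with 4 GC boxes (GGGCGG). The Lep stretch, at 65.6% GC and 16 CpGs, had a GC box and a C/EBP motif, the palindrome TTGCGCAA, that began 55 bases before the start. Plin1 had 2 C/EBP motifs (TTGCNNAA) at 54% GC, and Cd36 had a nuclear receptor site (AGGTCA, here on the reverse strand; a PPAR element is a direct repeat of such sites), a CCAAT box and 2 GC boxes at 43.2% GC. Over all 8 promoters a C/EBP motif stood in 3 (9.18% of all promoters), the single site AGGTCA in 1 (12.8%), a CCAAT box in 3 (35.6%), a GC box in 3 (43.1%), an AP-1 motif (TGANTCA) in 1 (6.17%), and the TATA box TATAAA (11.7%) and the palindromic EBF motif (0.836%) in 0. A match describes the letters and shows no binding.

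At gene ends, 7, 6 and 6 of the 10 genes had a kept peak within 1 kb in PBS and 6, 7 and 7 in DOX, where 58.6% to 60% of all genes had one in each library. They were Adipoq, Lpl, Acsl1, Dgat2, Plin1 and Gpd1 in all 6 libraries and Fabp4 in PBS replicate 1 and DOX replicates 2 and 3. The peak of Plin1 lay at the end away from its listed promoter. The peak at a Gpd1 end belonged to a region held by all 6 libraries that was nearer to Cox14. Cidec, Lep and Cd36 had 0 in each library.

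The strength of a region was compared as its percentile among the 49098 regions shared by all 6 libraries, ranked by −log10 p within each library, so that only the order within a library enters. Of the 24 shared regions of the 10 genes, 17 had a higher mean percentile in DOX and 7 a lower one, and the median difference was 2.4 points, against −0.04 points and 49.5% higher over all shared regions. In 5 of the 24 the DOX libraries all ranked above the PBS libraries, at Adipoq, Lpl, Cidec and, in 2 regions, Fabp4, against 9.37% of all shared regions. In 2 of the 24, at Adipoq and Dgat2, every PBS library lay above every DOX library, against 9.41%. limma on normal scores of the rank called 0 of the 49098 regions (0%) at an adjusted p under 0.05, where the lowest adjusted p was 0.0658. At an unadjusted p under 0.05 it held 6434 regions, or 13.1%, and 6 of the 24, whose lowest adjusted p was 0.0980.

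**Figure D3:**
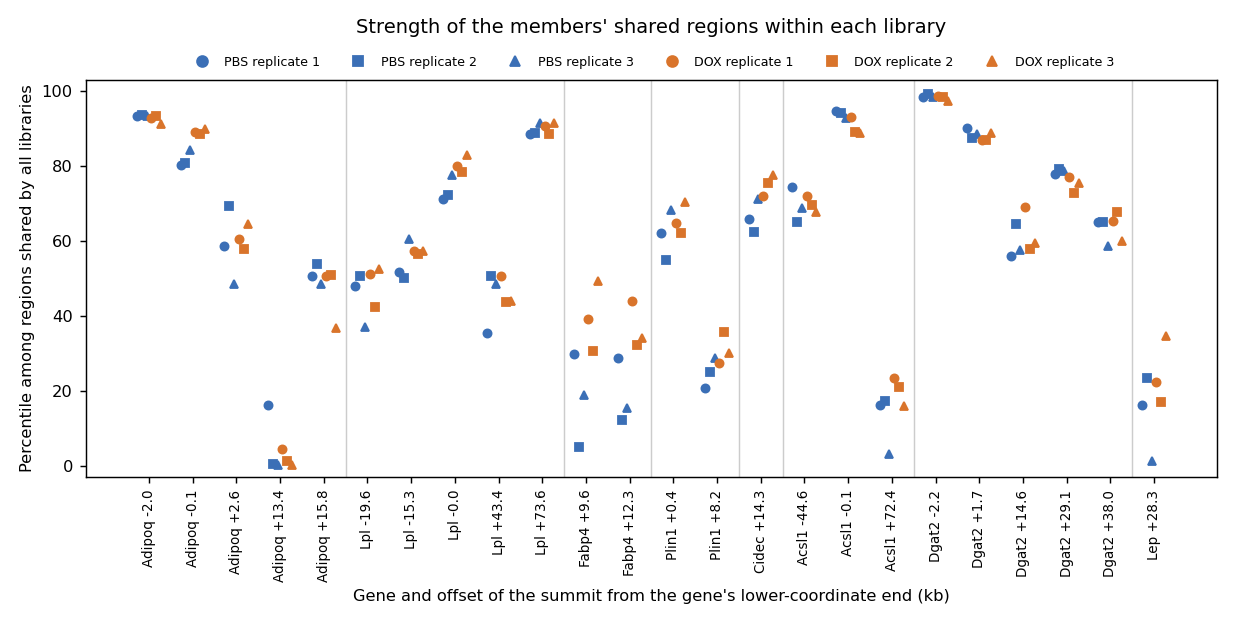
Percentile of each region shared by all 6 libraries (vertical axis; 100 is the strongest) for the 24 shared regions of the 10 genes, named on the horizontal axis by gene and summit offset in kb from the lower-coordinate end of the gene. Blue marks PBS, orange DOX, and shapes mark replicates. The region at the start of Adipoq sits between 80.4 and 84.4 in PBS and between 88.5 and 89.9 in DOX.

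Among the adipokines, Adipoq, which encodes adiponectin (chr16:23146536-23157968), had 5 regions held by all 6 libraries. The region over its start, chr16:23145858-23147309, which covers the promoter printed above, was at percentile 80.4, 80.9 and 84.4 in PBS replicates 1, 2 and 3 and 89.2, 88.5 and 89.9 in DOX replicates 1, 2 and 3. All DOX values lay above all PBS values, with means of 81.9 and 89.2 and SDs of 2.19 and 0.697. The difference was 0.33 ± 0.07 (SE) on the normal-score scale and did not pass the threshold (adjusted p = 0.0980, limma; 0.0558 to 0.302 over the alternatives). Its summit height was 127, 141 and 147 times the background in PBS and 170, 188 and 198 times in DOX. The strongest Adipoq region, chr16:23143688-23145039, whose summit was 1977 bp before the gene, went slightly the other way: it was at percentile 93.4, 93.7 and 93.4 in PBS and 92.8, 93.3 and 91.3 in DOX, a difference of −0.07 ± 0.07 in normal score (adjusted p = 0.672, limma). The other shared Adipoq regions had overlapping groups.

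Lep, which encodes the hormone leptin (chr6:29060221-29073876), had few open regions. Its 1 region held by all 6 libraries, with its summit 14656 bp past the gene's higher-coordinate end, was at percentile 16.3, 23.5 and 1.35 in PBS and 22.4, 17.0 and 34.7 in DOX. The groups overlapped, with PBS replicate 3 the lowest and DOX replicate 3 the highest (0.60 ± 0.34 in normal score, adjusted p = 0.459, limma). The sign of the log2 difference in its number of regions rested on PBS replicate 1 and was −0.24 without it. The other 3 Lep regions were each held by some libraries only. The one 35906 bp before the gene stood at 22.8 times the background in PBS replicate 2 and at 18.0, 17.3 and 25.2 times in DOX, and the deposited list of PBS replicate 1 had it at 12.6 times. The one 16164 bp before the gene was kept in PBS replicate 2 alone, at 18.2 times, and the one inside the gene in PBS replicate 3 alone, at 35.9 times. The deposited lists also held the former in PBS replicate 1 and DOX replicates 2 and 3, at 8.66, 7.17 and 11.7 times. They held the latter in PBS replicate 3 only.

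Of the genes for uptake and activation, Lpl, whose product, lipoprotein lipase, frees fatty acids from lipoproteins (chr8:68880555-68906932), had 5 regions held by all 6 libraries. The region at its lower-coordinate end, chr8:68880022-68882021, was at percentile 71.1, 72.4 and 77.5 in PBS and 80.1, 78.5 and 83.0 in DOX. All DOX values lay above all PBS values, by 0.23 ± 0.07 in normal score (adjusted p = 0.210, limma). Its strongest region lay 47194 bp past the other end, at 88.7, 89.0 and 91.4 in PBS and 90.7, 88.6 and 91.5 in DOX, and the groups overlapped (adjusted p = 0.883, limma). A region inside Lpl was held by PBS replicate 3 alone of PBS and by all 3 DOX libraries, at 12.6 times the background in the former and 12.8, 19.1 and 18.0 times in DOX replicates 1, 2 and 3. The deposited lists also held it in PBS replicates 1 and 2, at 10.2 and 10.0 times.

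Fabp4, which encodes a fatty acid carrier of the adipocyte cytoplasm (chr3:10204342-10208616), had weak regions that ranked higher in DOX. The region 5299 bp past its higher-coordinate end, chr3:10213480-10214165, was at percentile 29.9, 4.97 and 18.9 in PBS and 39.2, 30.8 and 49.3 in DOX. The group means were 17.9 and 39.8, a difference of 0.75 ± 0.25 in normal score (adjusted p = 0.220, limma). The region 8054 bp past the end, chr3:10216254-10216829, was at 28.7, 12.3 and 15.3 in PBS and 44.1, 32.3 and 34.2 in DOX, or 0.58 ± 0.21 (adjusted p = 0.248, limma). In both, every DOX library was above every PBS library. The region over the gene's higher-coordinate end, 49 bp from it, had 27 fragments in PBS replicate 1 and 26 and 34 in DOX replicates 2 and 3. These heights were 21.3, 15.5 and 15.3 times the background, where the weakest kept peak of each of these libraries was at 12.6 times. The kept lists of the other libraries did not hold it. The deposited lists also had it in PBS replicate 2, at 7 fragments, and in DOX replicate 1, at 20. In DOX replicate 1 that was the height of the weakest kept peak.

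Acsl1, which encodes a long-chain acyl-CoA synthetase (chr8:46471037-46536051), had a strong region over its first promoter, chr8:46470116-46471967. It was at percentile 94.7, 94.2 and 92.9 in PBS and 93.0, 89.2 and 88.9 in DOX. DOX replicate 1 fell between PBS values, so the groups overlapped, and the difference was −0.24 ± 0.08 in normal score (adjusted p = 0.210, limma). The mean number of Acsl1 regions went the other way, at 5.33 in PBS and 7 in DOX. Cd36, which encodes a fatty acid translocase (chr5:17781690-17888959), had 0 kept peaks, and in the deposited lists it had 2, 0 and 0 peaks in the PBS libraries against 2, 2 and 4 in the DOX libraries. Within 100 kb of Cd36, 2 union regions lay nearer to Sema3c, of which 1 was held by all 6 libraries.

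Of the genes for triglyceride synthesis, Dgat2, whose product adds the last fatty acid (chr7:99153663-99182713), had 5 regions held by all 6 libraries, among them the strongest of the 48. That region, chr7:99151325-99151929, 2156 bp before the lower-coordinate end, was at percentile 98.5, 99.3 and 98.5 in PBS and 98.6, 98.6 and 97.5 in DOX, and the groups overlapped (adjusted p = 0.520, limma). The region at the higher-coordinate end, chr7:99181622-99183278, was at 77.8, 79.2 and 78.8 in PBS and 77.2, 72.9 and 75.6 in DOX. Here every PBS library lay above every DOX library, by −0.11 ± 0.07 in normal score, DOX minus PBS (adjusted p = 0.498, limma). Gpd1, whose product makes glycerol 3-phosphate for the backbone (chr15:99717587-99725014), had 0 regions held by all 6 libraries and 2 union regions, both held by DOX libraries only.

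Of the genes for the lipid droplet, Plin1, which encodes the perilipin of the adipocyte droplet (chr7:79721164-79732904), had 2 regions held by all 6 libraries. The stronger one, chr7:79721291-79722175, at the end away from the promoter, was at percentile 62.0, 55.0 and 68.3 in PBS and 64.8, 62.2 and 70.5 in DOX (adjusted p = 0.664, limma), with overlapping groups. Cidec, whose product fuses droplets (chr6:113424634-113435760), had 1 such region, chr6:113438616-113439328, 3128 bp before the gene on its strand. It was at 66.0, 62.4 and 71.3 in PBS and 72.0, 75.5 and 77.7 in DOX, every DOX library above every PBS library, by 0.25 ± 0.08 in normal score (adjusted p = 0.207, limma).

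Of the 48 regions, 3 were held by all DOX libraries and no PBS library, against 623 of 78613 union regions (0.792%), and 0 showed the opposite, against 0.303%. They spanned 217 bp (Acsl1), 411 bp (Gpd1) and 252 bp (Cidec). The Acsl1 region, chr8:46442030-46442246, 28912 bp before the gene, had summits of 25, 33 and 51 fragments in DOX. The deposited lists also held it in PBS replicates 1 and 2, at 14 fragments each, and did not list it in PBS replicate 3. The Gpd1 region, chr15:99718692-99719102, inside the gene, had 23, 25 and 34 fragments in DOX, and 15 and 12 in PBS replicates 1 and 2 of the deposited lists. The Cidec region, chr6:113427457-113427708, inside the gene, had 27, 28 and 39 fragments in DOX, and 11 in PBS replicate 2 of the deposited lists.

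Set against the background of each library, the Acsl1 region stood at 14.5, 19.7 and 22.9 times the background in DOX and at 11 and 12.8 times in PBS replicates 1 and 2. The Gpd1 region stood at 13.4, 14.9 and 15.3 times in DOX and 11.8 and 10.9 times in PBS replicates 1 and 2, and the Cidec region at 15.7, 16.7 and 17.5 times in DOX and 10.0 times in PBS replicate 2. The weakest kept peak was at 12.6 and 12.8 times the background in PBS replicates 1 and 2 and at 11.6 to 12.6 times in DOX. The Gpd1 values thus lay close to the limit on both sides. In PBS replicate 2 the Acsl1 region, at 14 fragments, had the same height as the weakest kept peak, a tie settled by position. The weakest kept peak was at 8.97 times in PBS replicate 3, which listed none of the 3 regions. With only the 32731 strongest peaks of each library kept, 0 regions of the 10 genes were held by all DOX and no PBS library.

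**Figure D4:**
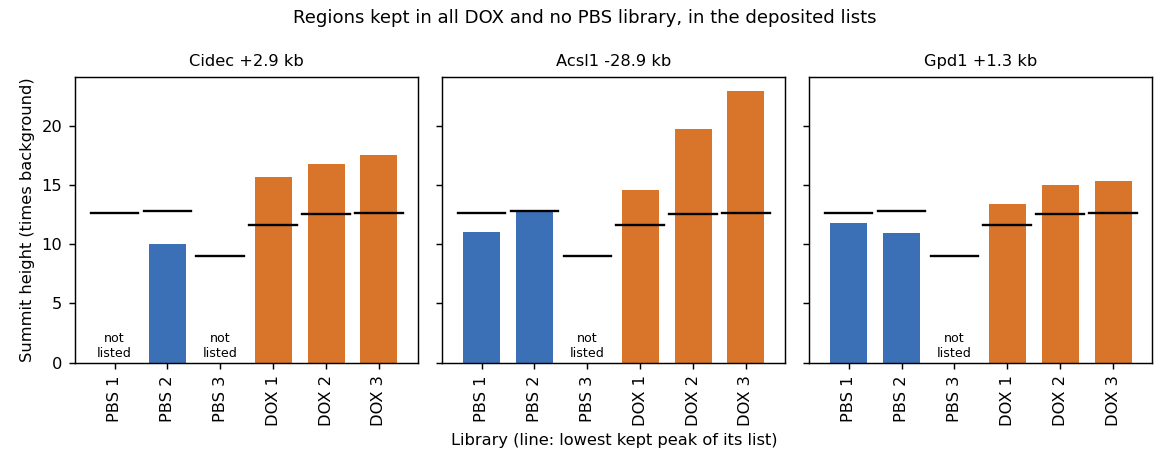
Summit height as a multiple of each library's background (vertical axis), from the deposited lists, of the 3 regions kept in all DOX (orange) and no PBS (blue) library, with the gene and summit offset in kb above each panel. The black line is the weakest kept peak of each library. The listed PBS bars stand at 10.0 to 12.8 times and the DOX bars at 13.4 to 22.9 times the background.

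The other genes of these pathways showed no call in either direction. Of 48 such genes, 36 had enough regions to test, and 0 rose and 0 fell in number of regions at an adjusted p under 0.05 by limma (0% of all genes), with 0 at an unadjusted p under 0.05. Their log2 difference was above 0 for 18 and below 0 for 5, with a median of 0.00. Lepr, with equal mean numbers in DOX and PBS, is among the 18. By mean number, 42.3% and 20.6% of all tested genes were higher and lower. Of their 153 shared regions 0 were called in rank, 19 ranked higher in all DOX than in all PBS libraries (9.37% of all shared regions did) and 8 the opposite (9.41%). Of their regions 0 were held by all DOX and no PBS library (0.792% of all regions) and 0 the opposite (0.303%). A gene end was open in all 6 libraries for 41 of the 48 and in none for 6, against 57% and 38.2% of all genes.

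By role, uptake and activation genes had 6 of 10 tested, 3 higher and 1 lower in mean, led in number of regions by Acsl4 (7, 8 and 7 in PBS; 6, 7 and 6 in DOX), Fabp5 and Acsl5. Triglyceride synthesis had 6 of 8 tested, 4 higher and 1 lower, and the most regions at Lpin1, whose product makes diacylglycerol (14, 12 and 9 in PBS; 12, 13 and 12 in DOX), Gpat3 and Gpam. Droplet genes had 5 of 8 tested, 1 higher and 1 lower, and the most regions at Cidea and Plin2. Lipolysis genes had 4 of 5 tested, 1 higher and 1 lower, and Mgll, the monoglyceride lipase, had the most regions (10, 8 and 7 in PBS; 8, 6 and 7 in DOX). Fatty acid synthesis had 7 of 8 tested, 5 higher and 0 lower, with the most at Elovl6, Acaca and Me1. Adipokine and receptor genes had 8 of 9 tested, 4 higher and 1 lower by log2 difference. Those 4 include Lepr, whose mean number was equal in DOX and PBS. Lepr, the gene whose Cre marked the cells, held 12, 12 and 14 regions in PBS libraries against 12, 13 and 13 in DOX libraries (a log2 difference of 0.00 ± 0.10, adjusted p = 1, limma), and Nampt and Cdh13 came next. Among all tested genes, 42.3% had a higher and 20.6% a lower mean number in DOX. Shared regions that ranked higher in all DOX than in all PBS libraries numbered 4 of 21 for uptake and activation, 1 of 25 for triglyceride synthesis, 6 of 15 for droplets, 0 of 17 for lipolysis, 4 of 32 for fatty acid synthesis and 4 of 43 for adipokines and receptors, and the opposite held for 1, 1, 1, 1, 3 and 1 of them. Over all shared regions these shares were 9.37% and 9.41%, and no test was made by role. Gpihbp1, Retn and Cideb held 0 regions in all 6 libraries. Cideb still had a kept peak within 1 kb of a gene end in all 6, in a region given to another gene, and Gpihbp1 and Retn had one in 0.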

How the data were processed

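Groups and replicate numbers came from the sample titles. The authors deposited 1 narrowPeak list per library on build mm10, and per the submitters' processing notes the tools include MACS2 2.2.7.1, Bowtie2 2.4.5, Picard 2.10.9 and Trim Galore 0.6.6, besides DiffBind 3.16.0 and DESeq2, without their roles. For settings and read filters, none were given in the sources used here. The deposited values are, per peak, a −log10 q, a score, a −log10 p, a fold enrichment ratio over background and a summit position. They are not scaled between libraries and hold no read counts. Peaks were ranked within their own list only. Summit heights, in fragments or as multiples of each library's background, are shown side by side and were not tested between libraries.

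Depth was solved from fold and −log10 p under the Poisson model of MACS2 with a constant background: pileups came out whole to within 0.05 for 100% of the 626 to 812 peaks solved per library. Chromosomes 1 to 19 and X were used. Genes were RefSeq spans of GRCm38.p6, without strand, exons or introns. Of spans that both held a summit, the one whose end was nearer took it. limma 3.58.1 in R 4.3.3 tested regions per gene (trend) and normal scores of rank (trend and robust), DOX against PBS, with Benjamini-Hochberg adjustment over all genes or regions. limma's own trend on log variances lay near 0, because many genes had no spread within groups, so the spread was raised to a smooth curve of the mean residual variance instead, a change made after seeing the data. Both tests were tested on simulated data.

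Members and lists were chosen with earlier results of these data known. All 10 genes are named, and of their regions the strongest per gene, those at gene ends, those held by all libraries of 1 group and none of the other, and the shared region with the lowest p. Of the pathway list, up to 3 genes per role with the most regions are named. The regions of Lep and Lpl held by some libraries only were chosen after their values were seen. The count over the B cell marker list is not reported here.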

Additional observations from a re-analysis of the deposited data

How the results depend on the processing

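Depth limits these lists, since each library lists only what passes its own limit. For single values of the 10 genes, 111 of 115 alternative values for regions per gene and 163 of 164 for ranks kept their direction and their side of the threshold. These counts include settings that left the difference itself as it was, so that its direction could not turn. For genes they were limma's usual moderation, limma's own trend, the replicate block, a minimum mean of 1 region and a limit of 50 kb. For ranks they were ranking by fold enrichment, moderation that was not robust, and the replicate block. With the 32731 strongest peaks the log2 difference of Adipoq, Acsl1 and Dgat2 was 0. The others that changed were the log2 difference of Lep, −0.24 without PBS replicate 1 (−0.24 to 0.13 with 1 library left out), and the normal score of the strongest Lpl region, −0.0045 without DOX replicate 3 (−0.0045 to 0.080). The cause was not tested.

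Over all genes, limma's usual moderation called 75 genes with more and 24 with fewer regions in DOX, and limma's own trend as the lower bound, added after seeing the data, called 73 and 23, against 0 and 0. Both can let genes without spread between replicates pass, and how many of the called genes were such was not counted. Shared regions called higher in DOX numbered 2 with the 32731 strongest peaks and 0 to 82 when 1 library was left out, and those called lower 0 to 11 (82 and 11 without PBS replicate 1), against 0 and 0. Regions held by all DOX and no PBS library numbered 2151 in the deposited lists, 293 with the 32731 strongest peaks, 2685 with a −log10 q of at least 10 and 955 to 1457 with 1 library left out, where fewer libraries must meet the rule. The opposite numbered 43 in the deposited lists, 5 with a −log10 q of at least 10 and 383 to 681 with 1 library left out. Of the 10 genes' regions, 0 with the 32731 strongest peaks and 5 with a −log10 q of at least 10 were held by all DOX and no PBS library, against 3. With the deposited lists, 7.33 of the 10 genes had a gene-end peak in the mean DOX library, and peaks assigned to them averaged 44 in PBS and 58.7 in DOX. Counting all summits within 100 kb, whatever gene was nearest, they averaged 123 and 129, against 31.7 and 38.3.

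With the replicate number as a block, limma called 32 shared regions higher and 16 lower in DOX and 0 genes. Deviations of libraries with the same number correlated at 0.11, −0.10 and 0.04, so the numbers were not taken to pair them.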
